A study of Homo sapiens with 6 samples.

Results

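The collagen genes are the genes that encode the alpha chains of the collagens, the main structural proteins of the extracellular matrix. They were chosen by name, as every gene symbol made of COL, a number, A and a number, and 44 of the 20347 gene symbols in the data met this rule. Their RNA was measured by RNA-seq in PaTu8988t, an established human cell line of pancreatic ductal adenocarcinoma (PDAC), grown in DMEM with fetal bovine serum. The control group held 3 replicates of cells that carried the lentiviral CRISPR/Cas9 vector with an unspecific guide. The *SAMD1* KO group held 3 clones that were selected with puromycin and grown from single cells after cutting of *SAMD1*, with 1 library per clone, and no rescue library was analysed here. *SAMD1* encodes a chromatin protein that binds unmethylated, CpG-rich DNA, and the comparison addresses how the RNA levels of these cells differ once it is lost. Because each clone is a single line and a single library, the p-values below measure the spread between these libraries, and clonal differences cannot be told apart from the spread of the KO effect.

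Collagen chains wind around each other to a helix of identical or related chains. The fibrillar collagens form the banded fibrils of connective tissue, the type IV chains form the sheet of the basement membrane, and type VII collagen anchors that sheet to the fibrils beneath it. Other families decorate fibrils (the FACIT collagens), form beaded filaments (type VI), carry a cleavable C-terminal domain such as endostatin (the multiplexins) or span the plasma membrane (types XIII and XVII). In pancreatic tumours fibroblasts and stellate cells deposit most of the fibrillar collagen, while the tumour cells make some of the chains themselves.

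The libraries held from 35589477 to 45172216 reads. Values are normalized counts, that is read counts divided by 1 size factor per library, and 3 reads correspond to 2.59 to 3.44 normalized counts. *SAMD1* itself had normalized counts of 2231, 2382 and 2299 in control replicates 1 to 3 and of 874.1, 1082 and 824.8 in KO clones 1 to 3. It was lower in every clone, with a log2 fold change of −1.32 (SE, the standard error of this value, 0.10, limma). Of the epithelial markers, *KRT8*, *KRT18*, *KRT7* and *EPCAM* had reads in all 6 libraries and *KRT19* was at 0 in all. Of the fibroblast markers, *DCN*, *LUM* and *FAP* were at 0 in all libraries, *THY1* reached at most 0.90, *POSTN* at most 1.96 and *PDGFRB* from 0.99 to 3.46 normalized counts. *ACTA2* lay between 328.3 and 417.5, while *PDGFRA* had 3.44 to 4.58 in control replicates and 14.7 to 23.7 in the clones (log2 fold change 1.90, limma adjusted p = 0.0139). The list was thus mixed, with 6 of its 8 genes too low to test, *PDGFRA* higher in the clones and *ACTA2* well expressed in both groups. The leukocyte marker *PTPRC* had at most 2.698, and the endothelial markers *PECAM1*, *CDH5* and *VWF* had from 2.97 to 40.5, with sums of 77.8 to 84.8 in controls and 33.6 to 83.6 in the clones.

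The groups were compared with limma on the scale of log2(normalized count + 1), keeping genes that averaged at least 10 normalized counts over the 6 libraries. This left 12773 genes, among them 22 of the 44 collagen genes. "Called" means a fold change past 0.5 (log2) together with p under 0.01 before adjustment, which is the cut-off of the study, and adjustment over the 12773 genes followed Benjamini and Hochberg. Tests were two-sided. With 3 libraries a group, the smallest p of an exact permutation test is 0.1.

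The stretches just before the transcription start are shown for *COL17A1* and *COL4A2*, the collagen genes called lower in the KO clones, and for *COL5A1* and *COL7A1*, which had higher levels in some clones, because SAMD1 is known to bind CpG-rich DNA. These genes are a selection. *COL3A1* and *COL6A1*, also higher in some clones, had no entry among the promoters used. *COL18A1*, *COL16A1* and *COL26A1*, also higher in some clones, had entries that are not shown. The stretches shown are RefSeq sequences on GRCh38.p14, written 5′ to 3′ along the strand of the gene, with every GCGC in capitals. Those of *COL17A1* (chr10:104085881-104086130, minus strand), *COL5A1* (chr9:134641553-134641802, plus strand) and *COL7A1* (chr3:48595330-48595579, minus strand) are the 250 bases before the start. That of *COL4A2* is the whole stretch of 126 bases between its start and that of *COL4A1*, which is read in the other direction (chr13:110307158-110307283, plus strand). These are the starts in RefSeq, and the GENCODE gene given below for *COL4A2* starts further upstream, so that it overlaps *COL4A1* and takes in this stretch.
COL17A1: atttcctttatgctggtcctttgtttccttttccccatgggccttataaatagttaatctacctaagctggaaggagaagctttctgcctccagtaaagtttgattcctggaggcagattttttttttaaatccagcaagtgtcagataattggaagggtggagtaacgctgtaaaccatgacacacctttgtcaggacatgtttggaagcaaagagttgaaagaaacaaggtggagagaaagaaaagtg
COL5A1: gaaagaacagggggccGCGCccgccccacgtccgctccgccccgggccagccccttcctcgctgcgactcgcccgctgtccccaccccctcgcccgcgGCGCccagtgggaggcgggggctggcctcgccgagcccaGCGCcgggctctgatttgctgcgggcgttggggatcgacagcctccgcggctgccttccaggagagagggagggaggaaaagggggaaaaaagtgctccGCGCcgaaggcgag
COL7A1: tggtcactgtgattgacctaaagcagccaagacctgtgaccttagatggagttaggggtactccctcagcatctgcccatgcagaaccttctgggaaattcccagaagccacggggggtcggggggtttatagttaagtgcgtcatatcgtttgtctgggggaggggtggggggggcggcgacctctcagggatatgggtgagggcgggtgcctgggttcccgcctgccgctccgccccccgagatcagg
COL4A2: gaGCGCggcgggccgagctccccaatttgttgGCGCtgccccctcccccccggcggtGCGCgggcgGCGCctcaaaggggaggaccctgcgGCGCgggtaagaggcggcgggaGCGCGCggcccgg
The *COL17A1* stretch held 1 CpG and no GCGC, and its G+C content was 40.4%. The *COL4A1* and *COL4A2* stretch held 20 CpG and 7 GCGC, overlapping matches included, with 80.2% G+C. The *COL5A1* stretch held 29 CpG and 4 GCGC, and that of *COL7A1* held 11 CpG and no GCGC. GCGC reads the same on both strands. In windows of 300 bases (250 before and 50 after the start), 13 of the 16 tested collagen genes that had a RefSeq window held GCGC (81.2%), beside 85.2% of the 10260 windows of tested genes and 56.5% of all 27305 windows. The tested collagen genes had a median of 26.5 CpG per window and the tested genes 26. The stretches above differ in length, while these windows do not. In them *COL4A2* held 45 CpG and 11 GCGC, *COL5A1* 36 and 5, *COL7A1* 17 and 0, and *COL17A1* 1 and 0. *COL18A1* held 46 and 5, *COL16A1* 22 and 1, and *COL26A1* 29 and 2. A match only describes these letters, and no binding was measured here.

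Of the 22 tested collagen genes, 2 were called lower in *SAMD1* KO cells (9.09%) and 0 were called higher. Among all tested genes, 2.08% were called lower and 5.77% higher. With 0 collagen genes called higher by limma, 5 were higher at an unadjusted p below 0.05 (22.7%, against 16.1% of all genes), 2 were called higher by edgeR (6.1% of all genes) and 4 by DESeq2 (6.5% of all genes). Without regard to p, 9 (40.9%) had a log2 fold change over 0.5, which 9.42% of all tested genes had. In the other direction, 5 (22.7%) were lower by more than 0.5, against 4.32% of all tested genes. At an unadjusted limma p below 0.05, 5 were lower (22.7%, against 13.5% of all genes). edgeR called 1 lower (1.93% of all genes) and DESeq2 called the same 2 as limma (2.07% of all genes). On an adjusted p below 0.05 alone, 0 were higher and 2 lower, *COL4A2* and *COL27A1*, where all genes gave 8.32% and 4.7%. The 2 genes that fell were *COL4A2* and *COL17A1*, a chain of the basement membrane and a protein of the hemidesmosome that holds epithelial cells to it. In many of the other collagen genes the clones lay far apart. The median range of the 3 clones over the tested collagen genes was 1.37 on the log2 scale, while that of the control replicates was 0.23. Over all tested genes these medians were 0.29 and 0.11.

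*COL4A2* (chromosome 13, 110305812 to 110513209, plus strand) encodes the chain that pairs with *COL4A1* in the basement membrane of most tissues. It had 81.2, 87.1 and 65.3 normalized counts in control replicates 1 to 3 and 15.8, 26.8 and 6.3 in KO clones 1 to 3. Every clone lay below every control replicate. The mean fell from 77.9 ± 11.3 to 16.3 ± 10.3 (SD, n = 3 each), to 0.21 of the control level, with a log2 fold change of −2.38 (SE 0.47, limma adjusted p = 0.0183). It was called with each of the 6 libraries left out in turn, between −2.82 and −1.86. The cut-off uses the unadjusted p. Without control replicate 1, 2 or 3 the limma adjusted p of *COL4A2* was 0.0891, 0.0891 and 0.0700. Its partner *COL4A1* was not tested, with 3, 4 and 8 reads in the controls and 2, 2 and 3 in the clones. The *COL4A3* and *COL4A4* chains, which are typical of the kidney's filtration membrane, share a start region with 170 bases between them. *COL4A4* had 49.2, 44.03 and 53.8 normalized counts in controls and 51.4, 50.1 and 76.5 in the clones (log2 fold change 0.25, SE 0.22, limma adjusted p = 0.498). *COL4A3* had 11.4, 6.8 and 11.5 and then 10.9, 13.8 and 17.1 (log2 fold change 0.46, SE 0.34, limma adjusted p = 0.403). For both, clone 3 was the highest library and the groups overlapped. The 40 tested genes nearest to *COL4A3* also had their highest median in clone 3, at 0.30 above control on the log2 scale. *COL4A5* had no reads in any library and *COL4A6* at most 7.

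*COL17A1* (chromosome 10, 104031286 to 104085880, minus strand) encodes the transmembrane collagen of hemidesmosomes. It had 289.4, 294.5 and 334.5 normalized counts in controls and 203.7, 95.0 and 188.9 in the clones. The groups did not overlap, and clone 2 was the lowest library. The mean fell from 306.1 ± 24.7 to 162.5 ± 58.9 (SD, n = 3 each), with a log2 fold change of −0.98 (SE 0.28, limma unadjusted p = 0.00902, adjusted p = 0.0608). Without control replicate 1, 2 or 3 the log2 fold change stayed at −1.02, −1.01 and −0.92, but the unadjusted limma p of 0.0228, 0.0257 and 0.0337 no longer passed the cut-off. edgeR gave −0.91 with an unadjusted p of 0.0107, just outside it. The other transmembrane collagen tested, *COL13A1*, which sits at cell-matrix contacts, had 267.7, 292.5 and 253.1 in controls and 636.8, 280.8 and 344.5 in the clones. Only clone 1 stood well above the controls, clone 2 lay within them, and the log2 fold change of 0.54 (SE 0.28, limma adjusted p = 0.241) was not called.

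A further 3 genes were lower in every clone than in every control without being called, so that 5 of the 22 (22.7%) did not overlap in this direction, beside 18.6% of all tested genes. *COL27A1*, a fibrillar collagen known from cartilage, had 2534, 2675 and 2452 normalized counts in controls and 1997, 2190.1 and 1740.5 in the clones. Its log2 fold change of −0.38 (SE 0.09, limma adjusted p = 0.0369) passed the adjusted test and not the fold limit. Without control replicate 1, 2 or 3 the limma adjusted p was 0.140, 0.149 and 0.112. *COL1A1*, the major chain of type I collagen, had 50.3, 48.9 and 52.7 in controls and 21.8, 41.5 and 15.3 in the clones (log2 fold change −1.04, SE 0.35, limma adjusted p = 0.0980). Clone 2 was close to the controls, and without it *COL1A1* was called, at −1.42 (limma adjusted p = 0.0150). The *COL1A2* chain, which joins *COL1A1* in type I collagen, had 1 read in 1 control library and none in the other libraries. *COL6A2* had 17.2, 28.4 and 16.0 in controls and 6.9, 7.8 and 0 in the clones, where 0 reads allow up to 2.698 normalized counts. Its log2 fold change was −2.34 (SE 0.83, limma adjusted p = 0.112).

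The highest fold changes belonged to genes that lay above control in clones 1 and 2 and close to it in clone 3, and none of these passed the cut-off. Of the 22 genes, 4 (18.2%) had every clone above every control (*COL3A1*, *COL6A1*, *COL7A1* and *COL5A1*), as did 19.2% of all tested genes. *COL3A1*, the chain of the fibrillar type III collagen (chromosome 2, 188974373 to 189012746), had 111.0, 113.5 and 108.8 normalized counts in controls and 279.8, 398.3 and 130.4 in the clones. All clones were above the controls, clone 3 by only 0.23 on the log2 scale against 1.33 and 1.83 for clones 1 and 2. The mean was 111.1 ± 2.34 in controls and 269.5 ± 134 in the clones (SD, n = 3 each), with a log2 fold change of 1.13 (SE 0.37, limma adjusted p = 0.0881). *COL5A1*, the chain that nucleates thin fibrils (chromosome 9, 134641803 to 134844843), had 646.3, 635.0 and 594.5 in controls and 1852, 1554 and 689.9 in the clones. Its clones also lay above all controls, with a log2 fold change of 1.01 (SE 0.33, limma adjusted p = 0.0911). Its partner chain *COL5A2*, which lies 19.2 kb from *COL3A1*, had 104.1, 122.3 and 112.3 and then 133.5, 251.4 and 98.9. Clone 2 alone was far above the controls, and the log2 fold change was 0.40 (SE 0.32, limma adjusted p = 0.436).

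**Figure D1:**
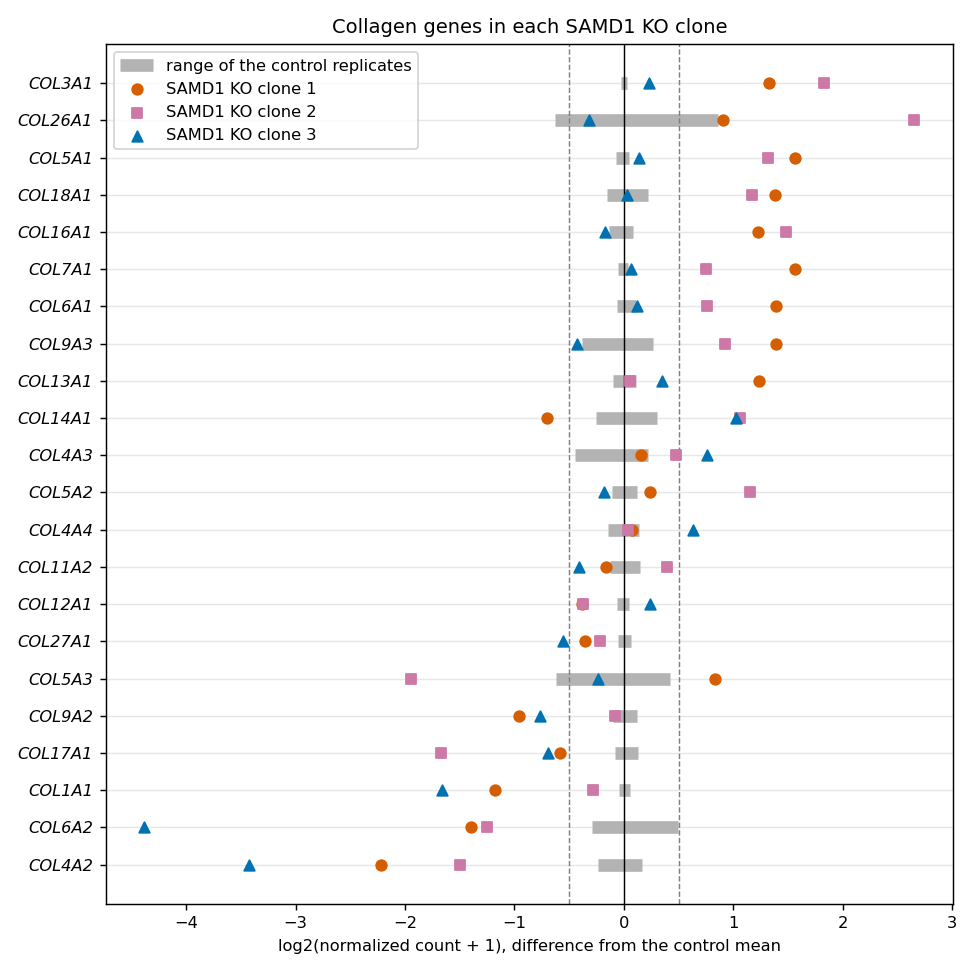
Difference of each SAMD1 KO clone from the control mean on the log2(normalized count + 1) scale for the 22 tested collagen genes, ordered by fold change. Grey bars span the 3 control replicates, and dashed lines mark 0.5 on either side. Clones 1 and 2 lie beyond 0.5 above control with clone 3 below that limit in 8 genes, and all 3 clones lie beyond 0.5 below control in *COL17A1*, *COL6A2* and *COL4A2*.

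The same split between the clones was seen in collagens of other classes. *COL6A1*, a chain of the beaded filaments (chromosome 21, 45981770 to 46005050), had 2208, 2489 and 2222 normalized counts in controls and 6027, 3902 and 2509.5 in the clones. *COL7A1*, the anchoring fibril collagen (chromosome 3, 48564073 to 48595329), had 2656, 2599 and 2493 in controls and 7627, 4341 and 2706 in the clones. In both genes clone 1 was highest and clone 3 lay just above the highest control. The log2 fold change of *COL6A1* was 0.76 (SE 0.28, limma adjusted p = 0.120), and that of *COL7A1* was 0.79 (SE 0.32, limma adjusted p = 0.152). *COL18A1*, the multiplexin whose end fragment is endostatin (chromosome 21, 45405165 to 45513720), had 633.7, 819.9 and 670.1 in controls and 1829, 1586 and 716.0 in the clones. *COL16A1*, a FACIT collagen (chromosome 1, 31652263 to 31704319), had 280.2, 327.8 and 319.6 and then 722.8, 861.4 and 274.3. For these genes clone 3 lay within or below the controls, so the groups overlapped. Their log2 fold changes were 0.86 for *COL18A1* (SE 0.33, limma adjusted p = 0.132) and 0.85 for *COL16A1* (SE 0.39, limma adjusted p = 0.198).

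Counted over the tested collagen genes, 8 of 22 (36.4%) lay over 0.5 above the control mean in clones 1 and 2 and not in clone 3, where 1.66% of all tested genes did. They were *COL16A1*, *COL3A1*, *COL9A3*, *COL18A1*, *COL6A1*, *COL7A1*, *COL26A1* and *COL5A1*. No collagen gene lay over 0.5 above control in all 3 clones, which 4.79% of all tested genes did. *COL14A1* was the only one above that limit in clones 2 and 3 alone (2.34% of all genes), and none was so in clones 1 and 3 alone (0.994% of all genes). Below control by more than 0.5 in all clones were *COL17A1*, *COL4A2* and *COL6A2* (13.6%, against 1.64% of all genes). With a limit of 1 in clones 1 and 2, 4 genes were left (18.2%, against 0.227%), namely *COL16A1*, *COL3A1*, *COL18A1* and *COL5A1*, and among genes with a mean of at least 50 the pattern was held by 6 of 13 (46.2%, against 1.24%). With clone 3 left out, 6 collagen genes were called higher (27.3%, against 5.98% of all genes), while limma called none higher without clone 1 (6.75% of all genes) or without clone 2 (5.36% of all genes). The 6 genes were *COL3A1* (log2 fold change 1.58), *COL5A1* (1.44), *COL16A1* (1.35), *COL18A1* (1.27), *COL7A1* (1.16) and *COL6A1* (1.07). This way of splitting the clones was chosen after the values were seen, and it is a description with no test. The summed level of the 5 epithelial markers moved with it, at 64406, 65891 and 62681 normalized counts in controls and 89939, 108553 and 67617 in the clones. The markers did not all move alike. Of the 4 that were tested, 3 were higher and 1 was lower in the clones, and 2 were called higher (5.77% of all tested genes). At a limma adjusted p below 0.05, 1 was higher (8.32% of all tested genes). The call of *KRT18* was lost without any 1 of the controls or without clone 1 or 2. *KRT8* was called only without clone 3. The part of this sum in the result was not tested. The 8 fibroblast markers summed to 413.9 to 425.5 in controls and 347.2 to 388.8 in the clones, with all 3 clones below the controls. Nearly all of this sum was *ACTA2*, and *PDGFRA*, the only called gene of the list, was higher in the clones. All libraries come from a single cell line, so this sum is not a share of fibroblasts. In bulk RNA, fewer cells carrying a transcript and less of it per cell cannot be told apart.

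**Figure D2:**
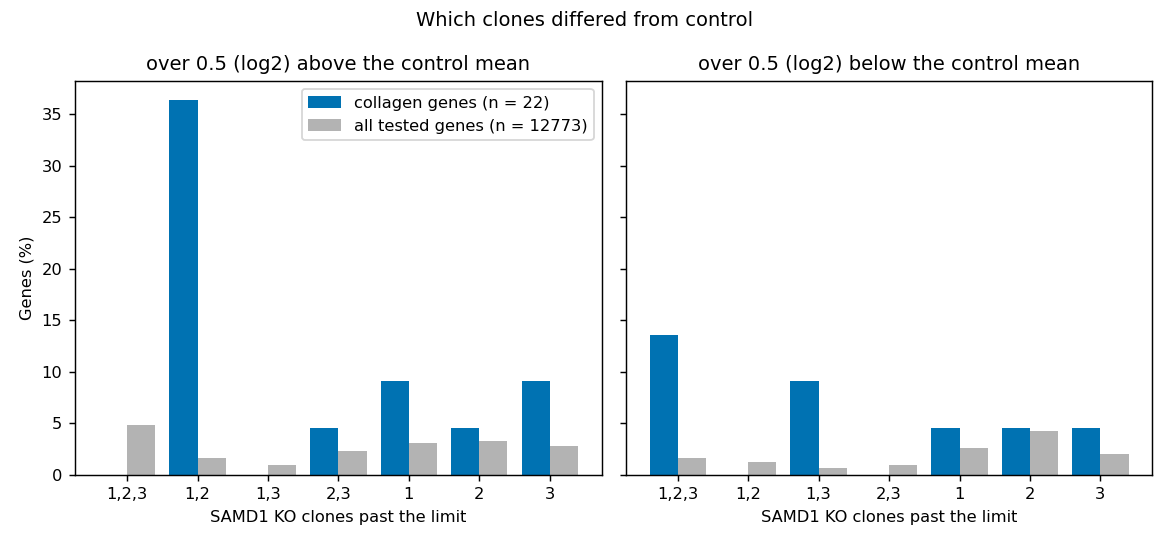
Share of genes, in percent, by which SAMD1 KO clones lay over 0.5 above (left) or below (right) the control mean on the log2 scale, for the 22 tested collagen genes in blue and all 12773 tested genes in grey. The bar for clones 1 and 2 together above control reaches 36.4% of the collagen genes and 1.66% of all genes.

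The genes next to these collagens were compared with control in the same way. The median difference of the 40 nearest tested genes was 0.02, 0.17 and −0.21 in clones 1 to 3 around *COL5A1* and 0.02, 0.04 and −0.02 around *COL18A1* and *COL6A1*. Around *COL3A1* it was 0.19, 0.10 and 0.16. Around *COL7A1* it was 0.26, 0.31 and 0.01, while the gene itself differed from control by 1.56, 0.75 and 0.07. Both were lowest in clone 3, but the gene was highest in clone 1 and its neighbours in clone 2. The log2 fold change of *COL7A1* was 0.60 (limma adjusted p = 0.161) with the regional median removed. With the regional medians removed *COL5A1* was called higher, at 1.01 (limma adjusted p = 0.0310). *COL18A1* overlaps *SLC19A1* on the opposite strand, and *COL9A3* overlaps *TCFL5*. The strand setting of the read counting is not given in the sources used here, so reads in those overlaps cannot be assigned with certainty. *SLC19A1* had a log2 fold change of −0.37 (limma adjusted p = 0.0899) and *TCFL5* one of 0.11 (limma adjusted p = 0.484).

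**Figure D3:**
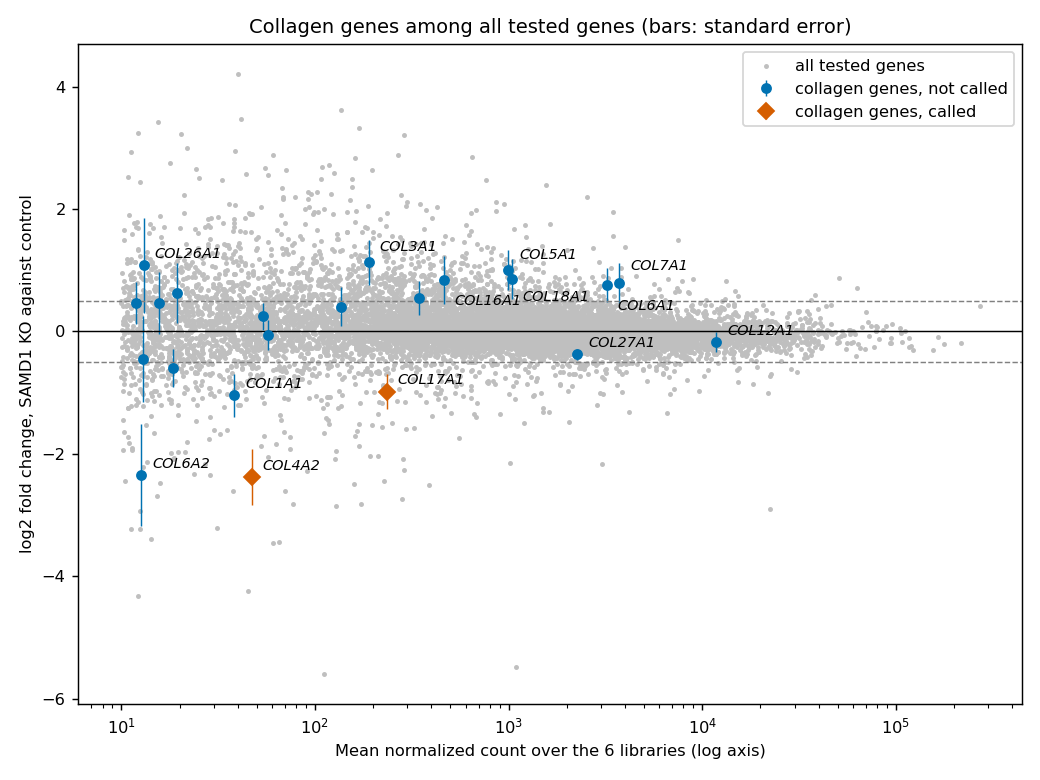
Log2 fold change (KO over control) plotted on the mean normalized count (log axis) for all 12773 tested genes in grey and the 22 tested collagen genes in colour, with standard errors as bars. Dashed lines mark 0.5 on either side. The 2 called collagen genes, *COL4A2* and *COL17A1*, lie at −2.38 and −0.98, and the collagen genes above the upper line are not called.

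The other tested collagens were either very abundant or low. *COL12A1*, a FACIT collagen that links fibrils (chromosome 6, 75084326 to 75206267), had 11873, 12843 and 12591 normalized counts in controls and 9511, 9614 and 14648 in the clones. Clones 1 and 2 lay below all controls and clone 3 above them. The log2 fold change was −0.17 (SE 0.16, limma adjusted p = 0.513), and without clone 3 it was −0.38 (limma adjusted p = 0.00757), which is not past the fold limit. Without clone 1 or 2 it was −0.067 and −0.075. Its reads made up 54.0%, 54.4% and 55.9% of the summed collagen counts in controls and 30.6%, 37.8% and 60.3% in the clones. The summed collagen counts were 21977, 23592 and 22531 in controls and 31100, 25453 and 24294 in the clones. Without *COL12A1* the sums were 10104, 10749 and 9940.4 and then 21589, 15839 and 9647. Clones 1 and 2 lay far above the controls in this sum and clone 3 lay below them.

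The control levels of the chains were put in order per kilobase of exon annotated for any transcript of the gene. This length can exceed that of the expressed RNA, so the order depends on the annotation. The ranges below cover only the spread between libraries. *COL12A1* was highest, with 659 ± 26.7 normalized counts per kilobase (SD, n = 3), followed by *COL6A1* with 417 ± 28.6, *COL7A1* with 232 ± 7.45 and *COL27A1* with 182 ± 8.04. *COL18A1* with 83.6, *COL5A1* with 56.0, *COL17A1* with 43.8, *COL16A1* with 33.4 and *COL13A1* with 23.6 came next, and none of these ranges over the 3 controls overlapped with that of the gene behind it. *COL3A1* with 16.4 and *COL5A2* with 15.4 overlapped. *COL1A1* had 5.62 and *COL4A2* 4.04, and from *COL4A4* to *COL14A1* each gene's range overlapped that of the next. In the KO clones *COL6A1* had the highest mean, at 749 ± 320, and *COL12A1* had 597 ± 156 (SD, n = 3 each), a difference within their spread.

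Of the remaining low genes, *COL26A1* had 3.4, 4.9 and 11.5 normalized counts in controls and 11.9, 42.3 and 4.5 in the clones (log2 fold change 1.08, SE 0.78, limma adjusted p = 0.392). *COL9A3*, a chain of the cartilage collagen type IX, had 10.3, 16.6 and 14.9 and then 37.6, 26.8 and 9.9 (log2 fold change 0.63, SE 0.49, limma adjusted p = 0.431). Its partner *COL9A2* had 21.7, 20.5 and 24.1 and then 10.9, 20.7 and 12.6, a log2 fold change in the other direction of −0.60 (SE 0.31, limma adjusted p = 0.240). Neither passed the test and in both the groups overlapped. *COL14A1*, a FACIT collagen, had 14.9, 9.8 and 11.5 in controls and 6.9, 25.9 and 25.2 in the clones. *COL11A2*, a chain of cartilage fibrils, had 52.6, 56.7 and 64.1 in controls and 51.4, 76.0 and 43.2 in the clones, and its clones lay on both sides of the controls. *COL5A3*, the third chain of type V collagen, had 14.9, 17.6 and 8.0 in controls and 23.7, 2.6 and 10.8 in the clones. The log2 fold changes of these genes were 0.46, −0.06 and −0.45 (limma adjusted p of 0.590, 0.897 and 0.711), and that of *COL5A3* turned to 0.30 without clone 2.

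The other 22 collagen genes did not reach a mean of 10 normalized counts. Of these, 4 had no reads in any library (*COL6A5*, *COL9A1*, *COL15A1* and *COL4A5*), 9 had at most 3 reads, 7 had between 4 and 9 reads in their highest library and 2 had 10 or more. The last are *COL11A1*, a chain of type XI collagen, with 9, 10 and 6 reads in controls and 3, 3 and 1 in the clones, and *COL6A6*, a type VI chain, with 2, 2 and 2 and then 0, 18 and 2. The *COL11A1* reads were lower in every clone, and *COL6A6* reached its reads in clone 2 only. Both are too low for a test. Tested members by class were 7 of 11 fibrillar chains, 3 of 6 type IV chains, 5 of 10 FACIT chains, 2 of 5 type VI chains, 2 of 4 transmembrane chains and 1 of 2 multiplexins. The network-forming chains of types VIII and X, 3 in all, were too low to test.

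The genes that make collagens were then taken as a list of enzymes, chaperones and secretion factors. Of 40 genes, 35 were tested, of which 6 were called higher and 1 was called lower, where 5.77% and 2.08% of all tested genes were, and their median log2 fold change was 0.06, against −0.01 for all tested genes. *P3H2*, an enzyme that hydroxylates prolines of basement membrane collagen, had 319.1, 279.8 and 336.8 normalized counts in controls and 977.0, 764.6 and 838.3 in the clones. It rose with a log2 fold change of 1.46 (SE 0.12, limma adjusted p = 0.000777). *COLGALT2*, a collagen galactosyltransferase, had 323.7, 321.9 and 324.2 in controls and 647.7, 714.5 and 709.7 in the clones, a rise of 1.09 on the log2 scale (SE 0.08, limma adjusted p = 0.000661). For both genes the 3 clones lay close together. *TGM2*, a transglutaminase that crosslinks matrix proteins, had 45799, 50131 and 48074 and then 86328, 77205 and 72700 (log2 fold change 0.71, limma adjusted p = 0.00265). *CREB3L1*, a transcription factor known to induce collagen genes, had 886.5, 1012 and 932.4 and then 1653, 1504 and 1322 (log2 fold change 0.66, limma adjusted p = 0.00683). *P3H3* and *LOXL4* rose by 0.66 and 0.56 on the log2 scale (limma adjusted p of 0.0272 and 0.0422), with all clones above all controls. The call of *P3H3* was lost without control replicate 1 or 3 (log2 fold change 0.64 in both cases), and that of *LOXL4* without any 1 of the controls (0.54, 0.57 and 0.57) or without clone 2 (0.40). *PLOD2*, the lysyl hydroxylase of the ends of fibrillar collagens, had 29299, 28198 and 29096 in controls and 15983, 10279 and 18282 in the clones. It fell by 1.00 on the log2 scale (SE 0.19, limma adjusted p = 0.0169) and was called with each library left out, with a limma adjusted p of at most 0.0827. *PLOD1* and *PLOD3*, which encode the related enzymes, were not called (limma adjusted p of 0.562 and 0.135).

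**Figure D4:**
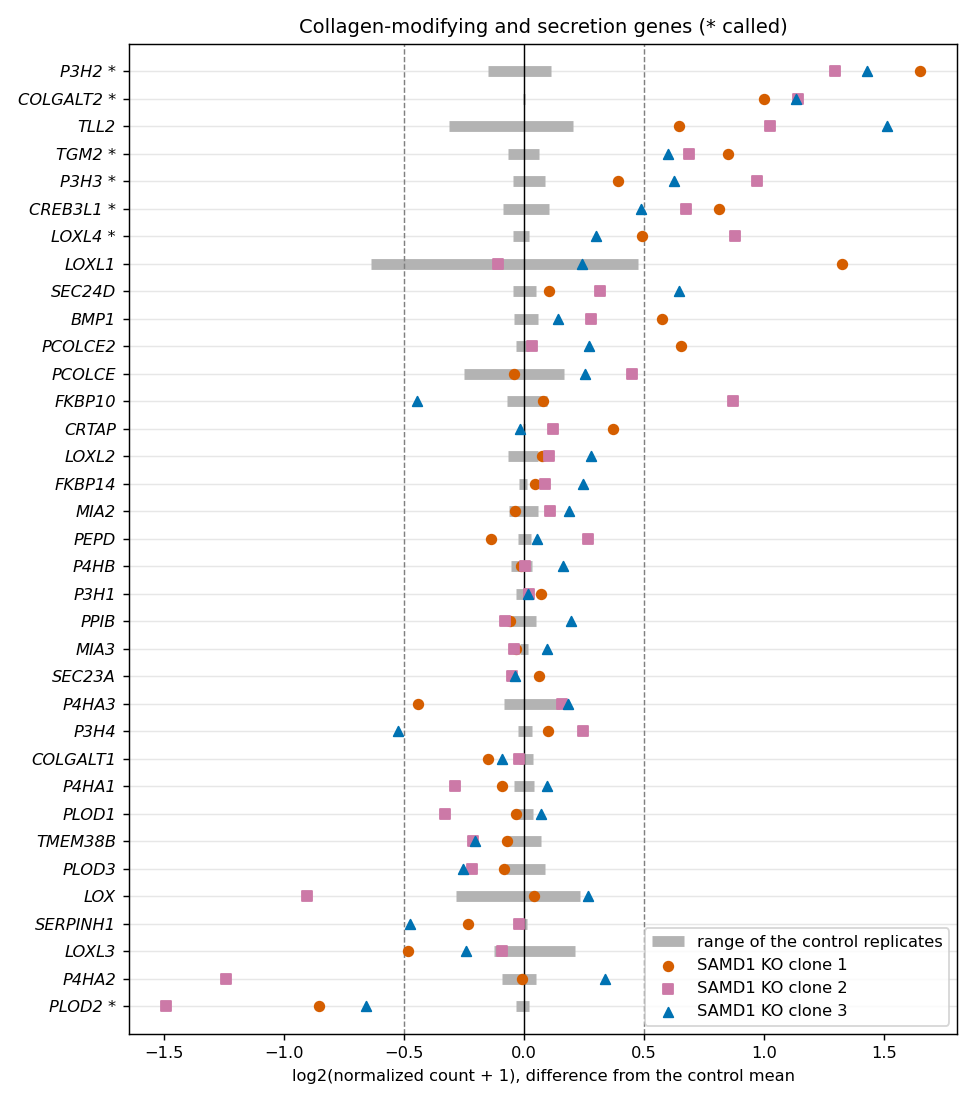
Difference of each SAMD1 KO clone from the control mean on the log2(normalized count + 1) scale for the 35 tested genes of collagen modification and secretion, with grey bars spanning the 3 control replicates and dashed lines at 0.5 on either side. Asterisks mark the 7 called genes, and in each of them all 3 clones lie on the same side of the grey bar, above it for *P3H2* and *COLGALT2* and below it for *PLOD2*.

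Of 12 collagen receptors, 8 were tested and 0 were called in either direction by limma (5.77% higher and 2.08% lower among all tested genes). At an unadjusted p below 0.05, 2 were higher, as were 16.1% of all tested genes. *ITGA10*, an integrin subunit that binds collagen, had 200.2, 215.3 and 173.0 normalized counts in controls and 223.5, 303.2 and 294.1 in the clones, with a log2 fold change of 0.47 (SE 0.16, limma adjusted p = 0.0935) that was called without clone 1, at 0.61. *ADGRG1*, an adhesion receptor that binds type III collagen, had 2321, 2300.3 and 2377 and then 3833, 2409.6 and 3242 (log2 fold change 0.41, SE 0.15, limma adjusted p = 0.123), and it was called without clone 2, at 0.60. *ITGA2*, the main epithelial collagen integrin subunit, had 1882, 1901 and 2153 and then 6406, 1673 and 2692, with clone 1 far above the other libraries (log2 fold change 0.63, SE 0.42, limma adjusted p = 0.358). Its common beta subunit *ITGB1* had 31661 to 32842 in controls and 31649.8 to 35424 in the clones. Of 12 partners in the basement membrane 11 were tested, of which 1 was called higher and 1 lower (5.77% and 2.08% of all tested genes). *HSPG2*, the proteoglycan perlecan, had 4503, 5646 and 4629 in controls and 3766, 2887 and 2682 in the clones, with a log2 fold change of −0.67 (SE 0.14, limma adjusted p = 0.0236). *NID2*, a linker between laminin and type IV collagen, had 8.0, 11.7 and 16.0 and then 22.7, 29.4 and 27.0 (log2 fold change 1.12, SE 0.32, limma adjusted p = 0.0591). Its call was kept only without control replicate 3 and was lost without control replicate 1 (0.89) or 2 (1.14), or without clone 1 (1.22), 2 (1.04) or 3 (1.10). *LAMB1*, a laminin chain, had 711.5, 786.6 and 852.2 and then 1632, 2004 and 924.6, with all clones above the controls, and was called only without clone 3, at 1.21 (with all libraries 0.89, limma adjusted p = 0.0657). The laminin chains *LAMB3* and *LAMA1* were also called only without clone 3, in the other direction, at −0.59 and −1.88.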

How the data were processed

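RNA-seq of PaTu8988t cells was analysed in 3 control replicates and 3 clonally independent *SAMD1* KO clones, grouped by their labels. The libraries were made with a TruSeq Stranded mRNA kit. The authors aligned reads to GenCode 43 with RNA-STAR, and the submitters' processing notes name featureCounts, DESeq2 and hg38. The authors deposited 1 signal per gene and library, the read count over that library's size factor (normalized count). In every library 100% of values were whole multiples of 1 step within a tolerance of 0.05, so whole reads were recovered for the count tests. The deposited table of the authors' own comparison (mean, log2 fold change, standard error, Wald statistic, p-value and adjusted p-value) was not used. limma 3.58.1 (lmFit, then eBayes with a trend, in R 4.3.3) was run on log2(normalized count + 1) for genes with a mean of at least 10. edgeR 4.0.16 and DESeq2 1.42.0 were run on the recovered reads. The totals of 35589477 to 45172216 reads leave counting error small for abundant genes, and the 3 libraries per group limit the precision.

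Named are all collagen genes with a mean of at least 10, those below it with 10 or more reads in a library, the called members of each pathway list and up to 3 of the smallest p where fewer than 3 were called, *SAMD1* and the marker genes. Other genes were named after their values were seen. The members and lists were chosen with earlier results of these data known. Positions and exon lengths are from GENCODE 44 on GRCh38, with 99.3% of the tested genes matched, and promoters from RefSeq, which held 32 of the 44 collagen genes. Alternatives were pseudocounts of 0.1 and 10, no filter or a mean of at least 50, the replicate number as a block, 75th percentile scaling, each library left out, an adjusted p below 0.05, and the median of the 40 nearest genes removed. On simulated data for this comparison, with 200 of 12773 genes changed 2-fold, limma recovered 190, edgeR 189 and DESeq2 187, with 29, 31 and 22 false calls. The simulation gave control and KO libraries the same spread. The tested collagen genes had a median range of 1.37 (log2) over the clones and 0.23 over the controls. The recovery therefore does not tell how many 2-fold changes would be found among them.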

Additional observations from a re-analysis of the deposited data

How the results depend on the processing

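The count of collagen genes called higher was the result that moved most. It was 0 by limma and rose to 1 with the replicate number as a block, 1 with the regional shift removed, 2 with edgeR (*COL3A1* and *COL5A1*) and 4 with DESeq2 (*COL16A1*, *COL3A1*, *COL18A1* and *COL5A1*). With 1 library left out it ran from 0 to 6, the 6 being without clone 3. The count called lower was 2. It was 1 with a mean of at least 50, where *COL4A2*, with a mean of 47.1, was no longer tested. With edgeR and with an adjusted p below 0.05 it was also 1, because *COL17A1* was not called. The count was 3 with a pseudocount of 10 or with no filter, and it ran from 1 to 3 with 1 library left out. The receptors called higher went from 0 to 1 with the regional shift removed and ran from 0 to 1 with 1 library left out. The median log2 fold change of the tested collagen genes was 0.43, and −0.062 with no filter, which brings in genes with few reads. It was 0.27 with the regional shift removed and ran from 0.25 (without clone 3) to 0.42 with 1 library left out, being 0.29 without control replicate 2 or clone 1 and 0.30 without clone 2. The count of 8 genes raised in clones 1 and 2 alone was 4 when the clones had to lie over 1 above control, and 6 of 13 genes with a mean of at least 50 (46.2%, against 1.24% of all such genes). Both settings were chosen after seeing the data.

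Of 343 values of single collagen genes under the alternatives, 319 kept direction and side of the cut-off, 16 came to pass it, 5 ceased to pass it and 3 changed sign. The sign changes were in *COL5A3* (from −1.09 to 0.30 with 1 library left out) and *COL11A2* (from −0.29 to 0.12, and 0.02 without control replicate 3). The cause was not tested. Under the replicate block *COL5A1* was called, at 1.01 (limma adjusted p = 0.0642). Deviations from the group means of same-numbered control and KO libraries correlated at 0.0391, 0.134 and 0.0318 over 12773 genes. Libraries with different numbers correlated between −0.0745 and 0.036. All of these were weak, though each clone had its highest value with the control of its own number. Whether the replicate numbers pair the libraries was not tested, and the main comparison did not pair them. With 3 libraries per group and clones that differ, a collagen gene not called here is not shown to be unchanged, and genes under about 10 reads could not be compared.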
